A study of Rattus norvegicus with 12 samples.

Results

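Somatostatin and its 5 receptors, the genes Sst, Sstr1, Sstr2, Sstr3, Sstr4 and Sstr5, were followed through laser-microdissected dorsal horn of the rat spinal cord. They were taken by symbol from the deposited count tables and are 6 of the 32623 genes listed there. In the deposited annotation (Rnor6) Sst lies at chr11:80358211-80359444, Sstr1 at chr6:79254339-79258611, Sstr2 at chr10:102136283-102143434, Sstr3 at chr7:119760888-119768082, Sstr4 at chr3:142739781-142741644 and Sstr5 at chr10:14847749-14853827, and each is a protein-coding gene. All rats were OT-hM3Dq-mCherry transgenic rats, 8 weeks old, in every group: a heterozygous Wistar line in which the oxytocin promoter drives hM3Dq, a designed receptor coupled to Gq, fused to the red protein mCherry. They received s.c. Saline or s.c. CNO (clozapine-N-oxide, the ligand of hM3Dq) at 1 mg/kg, and the tissue was taken 120 min later. RNA was sequenced from laminae I–II (the superficial layer) and laminae III–VI (the deep layer) of the L5 segment, giving 12 libraries, 3 for each layer and treatment. No library came from a rat without the transgene, so an effect of CNO itself and an effect of hM3Dq activation cannot be told apart here.

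Somatostatin is a cyclic peptide, cut from a larger precursor, that mostly inhibits the cells it acts on. In the spinal dorsal horn it is made by a large set of excitatory interneurons of the superficial laminae and by some primary afferent neurons. Its receptors are coupled to Gi/o proteins: they lower cyclic AMP, open inwardly rectifying potassium (GIRK) channels and close presynaptic calcium channels. The Sst promoter is a textbook target of the transcription factor CREB, which binds the cyclic AMP response element (CRE).

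The sequences before the members' start sites were read from RefSeq (build GRCr8), because CREB target sites belong to what Sst is known for. All 6 members had a window, 250 bases before and 50 bases after the annotated start. The full CRE, TGACGTCA, which reads the same on both strands, was found in the windows of Sst and Sstr2 and in none of the other 4. Of all 33469 windows, 1.83% held it. Sstr1 held only the shorter half-site TGACG (or CGTCA on the other strand), which 21.2% of windows held and which also forms part of each full CRE. In the sequences below, 110 bases before the CRE are in lower case and the CRE is in capitals.
Sst, chr11:90461438-90461555, plus strand: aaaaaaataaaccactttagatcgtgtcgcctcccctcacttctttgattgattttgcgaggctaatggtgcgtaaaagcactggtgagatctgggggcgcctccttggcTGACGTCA
Sstr2, chr10:99163170-99163287, plus strand: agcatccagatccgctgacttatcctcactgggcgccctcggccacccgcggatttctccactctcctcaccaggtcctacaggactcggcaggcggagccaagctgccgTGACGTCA
In Sst the CRE began at base 3 after the annotated start, and in Sstr2 it began 73 bases before it. These starts are RefSeq annotations and were not checked against a measured start of transcription. On which side of the true start the Sst CRE lies is thus not shown here. A match of letters is a description of the window and was not tested as a binding site.

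Total counts per library lay between 5245952 and 7889953, so that 3 counts corresponded to 0.380 to 0.572 CPM (counts scaled to a library total of 1000000). Levels below are given in CPM, and differences as log2 values with their standard error (SE) from an edgeR fit of all genes with TMM scaling. The members were chosen by these same counts, so their differences are given as a description and without a p-value. Transcript lengths were not at hand, so levels of different genes are not compared. The layers were checked by lists of neuronal genes. Of 15 tested genes of excitatory superficial neurons, 13 were higher in laminae I–II, against 30.8% of all 13745 tested genes, among them Tac1 (the substance P precursor; log2 2.72, SE 0.06, adjusted p = 1.44e-20). Of 12 tested genes of inhibitory neurons 7 were higher in laminae I–II, led by Pdyn (the dynorphin precursor; log2 2.02, SE 0.10, adjusted p = 2.00e-14). The 3 that were lower, against 30.8% of all genes, were Pvalb (parvalbumin; log2 −2.13), Slc6a5 (the glycine transporter of glycinergic neurons; log2 −1.49) and Slc32a1 (the vesicular transporter of GABA and glycine; log2 −0.84).

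Sst separated the layers widely. In laminae I–II its counts were 1261, 1516 and 1110 in the Saline libraries and 1728, 2206 and 1977 in the CNO libraries. In laminae III–VI they were 276, 215 and 176 after Saline and 138, 172 and 166 after CNO. Every superficial library therefore held more Sst than every deep one, by counts and by CPM. The level was 273 ± 56.4 CPM superficially and 27.1 ± 6.66 CPM in the deep layer (SD, n = 6 libraries each). The layer difference in log2 was 3.14 (SE 0.09), and 54 of 13745 fitted genes had a larger one. In this bulk tissue, fewer Sst cells and less Sst RNA per cell cannot be told apart.

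**Figure D1:**
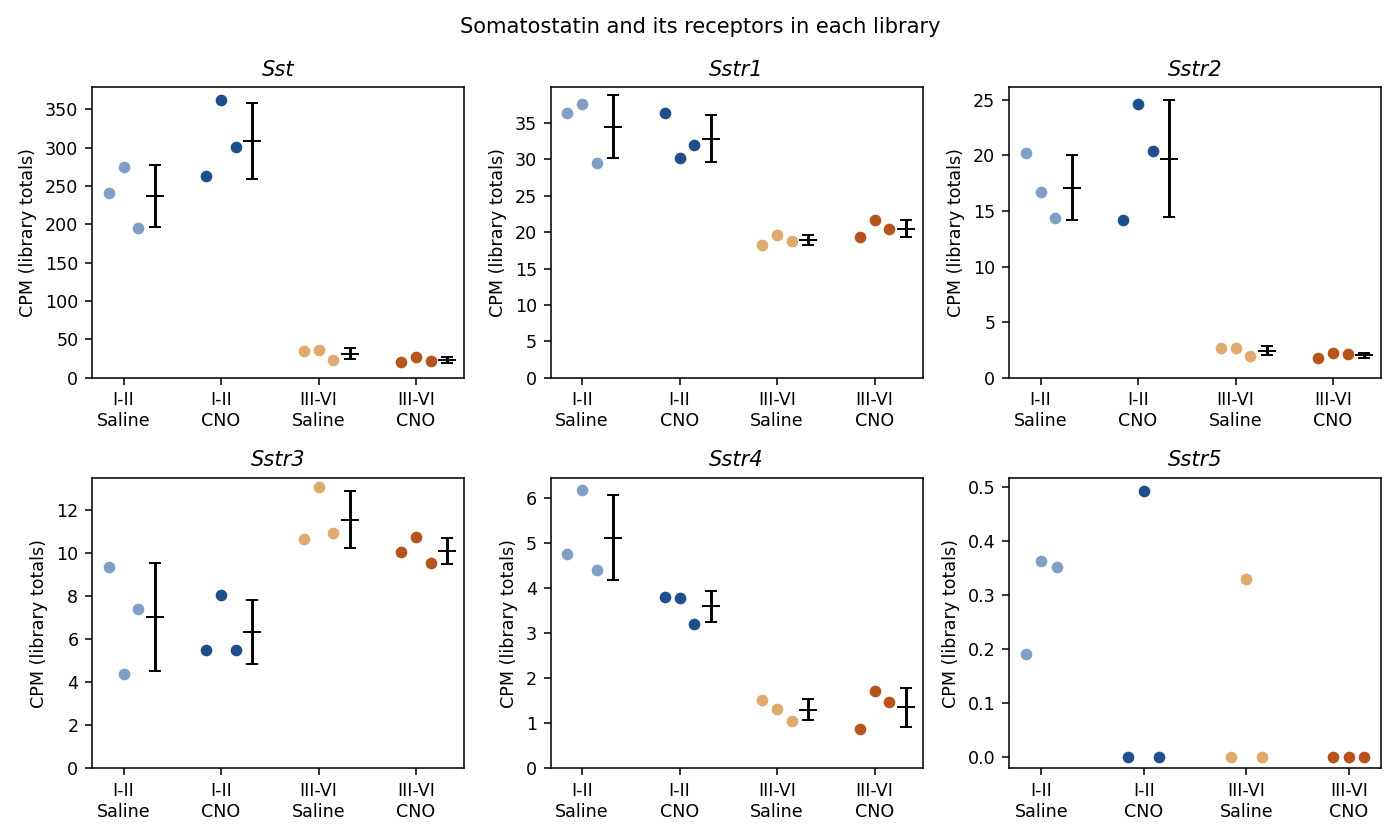
Each panel plots one gene, with its level in CPM on the vertical axis (starting at 0 except for Sstr5, drawn from just below 0) and the 4 groups on the horizontal axis. Points are single libraries, and the black marks give the mean ± SD of 3 libraries (not drawn for Sstr5). Sst, Sstr1, Sstr2 and Sstr4 were higher in every library of laminae I–II than in any of laminae III–VI, and Sstr3 was lower.

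Sstr2, a receptor that dorsal horn neurons carry on the cell body, followed the layer pattern of Sst. Its counts in laminae I–II were 106, 92 and 82 after Saline and 93, 150 and 134 after CNO. In laminae III–VI they were 21, 16 and 15 after Saline and 12, 14 and 16 after CNO. The level was 18.4 ± 4.06 CPM against 2.22 ± 0.366 CPM (SD, n = 6 libraries each), with no overlap between the layers. The layer difference in log2 was 2.86 (SE 0.13), exceeded by 83 of 13745 genes.

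Sstr4 showed the same direction at low counts. The superficial Saline libraries held 25, 34 and 25 counts and the superficial CNO libraries 25, 23 and 21. The deep libraries held 12, 8 and 8 counts after Saline, and 6, 11 and 11 after CNO. The layers did not overlap, at 4.35 ± 1.05 CPM against 1.33 ± 0.314 CPM (SD, n = 6 libraries each), and the log2 difference was 1.51 (SE 0.23).

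Sstr1 had a smaller layer difference. Its counts were 191, 207 and 168 after Saline and 239, 184 and 210 after CNO in laminae I–II. They were 144, 119 and 143 after Saline and 133, 139 and 152 after CNO in laminae III–VI. The layers did not overlap in counts or in CPM, at 33.7 ± 3.55 against 19.7 ± 1.21 CPM (SD, n = 6 libraries each). The log2 difference was 0.59 (SE 0.08).

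Sstr3, known as a receptor of neuronal cilia, was the member with the opposite direction. Its counts were 49, 24 and 42 after Saline and 36, 49 and 36 after CNO in laminae I–II. They were 84, 79 and 83 after Saline and 69, 69 and 71 after CNO in laminae III–VI. All deep libraries lay above all superficial ones, at 10.8 ± 1.21 against 6.68 ± 1.88 CPM (SD, n = 6 libraries each). The log2 difference was −0.87 (SE 0.14), and 516 of 13745 genes had a lower value.

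Sstr5 was scarcely detected. It had 10 counts in all 12 libraries together, at most 3 in one library, and 0 in 7 libraries. It did not pass the low-count filter (at least 10 counts in enough libraries) in any comparison. In the libraries at 0, a count of 0 allows up to 0.380 to 0.467 CPM (counting error only), so a layer or CNO difference was not detectable at this depth.

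Of the 6 members, 5 were thus fitted, and 4 lay higher and 1 lower in laminae I–II with no overlap between the layers. Among all 13745 fitted genes, 27% lay higher and 10.6% lower without overlap in CPM of library totals, and 16.6% and 18.6% did with TMM scaling. The edgeR test with Benjamini-Hochberg adjustment called 61.6% of genes different between the layers, 30.8% higher and 30.8% lower. Scaling by library totals moved the median of all genes by 0.178 in log2 towards laminae I–II and gave 6515 higher and 2533 lower genes, against 4235 and 4227 with TMM. The directions of the 5 members were the same under both scalings. Other cell types also differed between the layers: summed over their marker lists, the 5 microglial genes in the tables (of 6 listed) were at 133 to 173 CPM in the superficial libraries and 72.8 to 109 CPM in the deep ones. The 6 astrocyte genes were at 3941 to 5033 CPM and 2795 to 3186 CPM. The 8 fibroblast and meningeal genes in the tables (of 9 listed) were at 108 to 488 CPM and 62.3 to 84.4 CPM, without overlap. The Schwann cell genes Pmp22, Prx, Pmp2, Egr2 and Ncmap, a list cut down after its values were seen, were at 33.2 to 258 CPM and 24.7 to 34.3 CPM. These sums overlapped, with up to 2 genes at 0, and all 4 genes that passed the filter were called higher in laminae I–II. The 9 genes of sensory ganglion neurons, another source of Sst, summed to 18.3 to 26.9 CPM superficially and 31.8 to 65.1 CPM in the deep layer, with up to 3 of them at 0. Most of that sum was Prph (peripherin), whose group means were 11.2 and 13.1 CPM in laminae I–II and 27.5 and 46.9 CPM in laminae III–VI. The other 8 genes summed to 6.69 to 12.1 CPM and 7.10 to 12.4 CPM and overlapped between the layers. The sums of 6 oligodendrocyte genes (14355 to 16158 CPM superficially, 14920 to 16918 CPM in the deep layer, none at 0), 5 motor neuron genes (13.3 to 28.5 and 22.0 to 34.5 CPM, up to 3 at 0) and the 4 endothelial genes in the tables (172 to 209 and 183 to 221 CPM, 1 at 0) overlapped too. No microglial or astrocyte marker in the tables was at 0, and the part of all these cells in the members' layer differences was not tested.

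The receptors made up different shares of the receptor counts in the layers. Sstr2 gave 28.9 ± 5.09% of the counts of the 5 receptors superficially, against 6.51 ± 0.935% in the deep layer (SD, n = 6 libraries each). Sstr3 gave 10.5 ± 2.65% and 31.7 ± 2.49%. The layers did not overlap in either share. The share of Sstr1 was 53.3 ± 5.47% and 57.8 ± 3.11%, and it overlapped between the layers. Sstr4 gave 6.87 ± 1.56% and 3.87 ± 0.820%, without overlap. A count share also depends on transcript length.

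**Figure D2:**
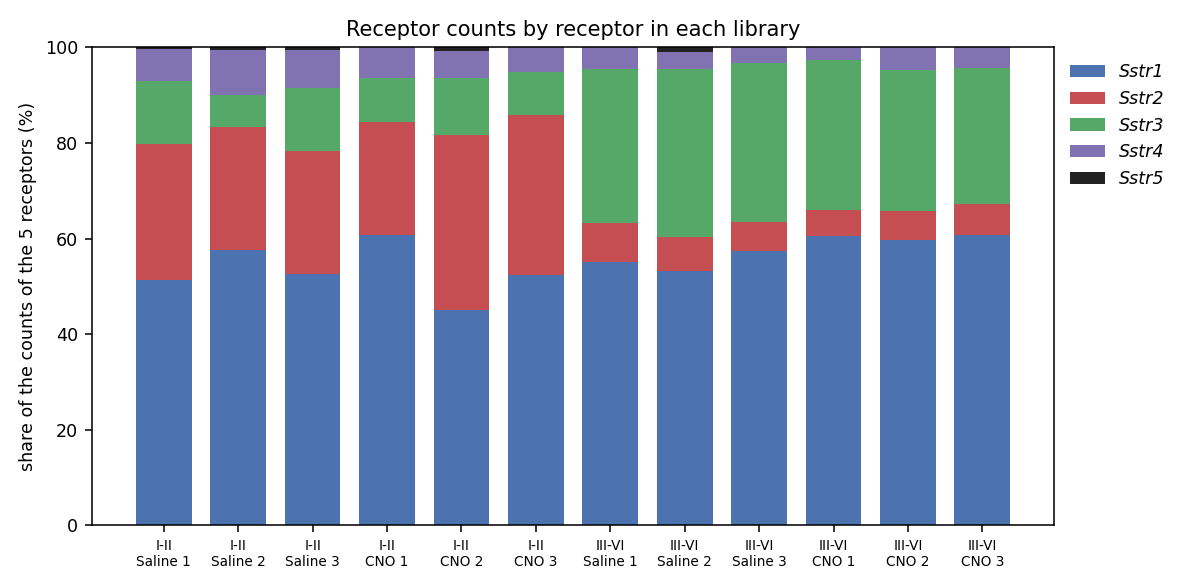
Stacked bars show, for each of the 12 libraries, the share (%) of the summed counts of Sstr1 to Sstr5 that fell on each receptor, from 0 to 100. The red part (Sstr2) covers 23.7 to 36.7% in the superficial libraries and 5.45 to 8.05% in the deep ones, and the green part (Sstr3) covers 6.69 to 13.2% and 28.4 to 35.3%.

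CNO and Saline were then compared within each layer. In laminae I–II, Sst was at 240, 275 and 195 CPM in the Saline libraries and at 263, 362 and 301 CPM in the CNO libraries. The group means were 237 ± 40.4 and 309 ± 49.8 CPM (SD, n = 3), and the groups overlapped because CNO 1 lay below Saline 2. The log2 difference was 0.38 (SE 0.11), and 347 of 13344 fitted genes had a larger one. The lowest superficial Sst level was that of Saline 3. Without Saline 3 the difference was 0.25, and without Saline 2 it was 0.51.

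The receptors showed no separation by CNO in laminae I–II other than Sstr4. Sstr1 was at 34.5 ± 4.38 CPM after Saline and 32.8 ± 3.20 CPM after CNO (SD, n = 3). Sstr2 was at 17.1 ± 2.92 and 19.7 ± 5.25 CPM. Of the 6 libraries CNO 1 was the lowest in Sstr2 and CNO 2 the highest, and its log2 difference was 0.39 without CNO 1 and 0.02 without CNO 2. Sstr3 was at 7.03 ± 2.51 and 6.33 ± 1.48 CPM. The log2 differences were −0.07 (SE 0.12) for Sstr1, 0.20 (SE 0.17) for Sstr2 and −0.15 (SE 0.26) for Sstr3, and those of Sstr1 and Sstr3 changed sign when one Saline library was left out, to 0.0027 without Saline 2 and to 0.10 without Saline 1. Sstr4 was at 4.77, 6.18 and 4.39 CPM after Saline and at 3.81, 3.77 and 3.19 CPM after CNO, so that each CNO library lay below each Saline library. Its log2 difference was −0.51 (SE 0.27), and 21 to 34 counts per library stand behind these levels. Among all genes 5.82% lay higher and 5.72% lower after CNO without overlap, and the edgeR test called 0.142% of 13344 genes in this layer.

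The superficial libraries also differed in fibroblast, meningeal and Schwann cell genes. The 8 measured fibroblast and meningeal genes summed to 118, 144 and 488 CPM after Saline and to 108 to 119 CPM after CNO, with none at 0. Saline 3 was thus the superficial library with the most RNA of this list and with the least Sst, and the part of this in the Sst difference was not tested. Summed over 5 genes of Schwann cells (Pmp22, Prx, Pmp2, Egr2 and Ncmap, a list cut down after its values were seen), the levels were 131, 123 and 258 CPM after Saline and 33.2, 42.7 and 66.9 CPM after CNO. Every CNO library lay below every Saline library in this sum, Saline 3 was again the highest, and 1 of the 5 genes was at 0 in CNO 1 and in CNO 2. The part of this in the members' CNO differences was not tested. The 6 astrocyte genes summed to 3941 to 4462 CPM after Saline and 4260 to 5033 CPM after CNO, with overlap. Of these 6 genes, 5 were higher after CNO and 1 was lower, and edgeR called 0. At an unadjusted p under 0.05 there were 3 (50%), against 7.05% of all genes. The part of astrocytes in the Sst difference was not tested. The 15 measured genes of excitatory superficial neurons summed to 1278 to 1445 CPM after Saline and 1315 to 1475 CPM after CNO.

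In laminae III–VI, Sst was at 35.0, 35.5 and 23.2 CPM after Saline and at 20.0, 26.8 and 22.3 CPM after CNO. The group means were 31.2 ± 6.99 and 23.0 ± 3.44 CPM (SD, n = 3). The groups overlapped, because Saline 3 lay below CNO 2. The log2 difference was −0.40 (SE 0.14). Of 13117 fitted genes, 438 had a lower value. Without Saline 1 the difference was −0.30 and without Saline 3 it was −0.57. The 5 measured microglial genes summed to 79.9 to 109 CPM after Saline and 72.8 to 78.0 CPM after CNO in this layer, without overlap and with none at 0. The 9 sensory ganglion genes summed to 31.8 to 42.0 CPM and 38.8 to 65.1 CPM, with up to 3 at 0, and Prph was called higher after CNO (log2 0.81, SE 0.15, edgeR adjusted p = 0.0294). DESeq2 called 0 genes of this list, and limma on quantile-normalized counts called no gene in this layer. Without Prph, the other 8 sensory ganglion genes summed to 7.10 to 12.4 CPM and 7.26 to 9.79 CPM. The 6 astrocyte genes summed to 3083 to 3186 CPM after Saline and 2795 to 3094 CPM after CNO, with overlap. All 6 were lower after CNO, edgeR called 0, and 1 (16.7%) had an unadjusted p under 0.05, against 9.24% of all genes. The part of these cell types in the Sst difference was not tested.

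By library totals, no receptor separated the treatments in laminae III–VI. Sstr1 was at 18.9 ± 0.711 CPM after Saline and 20.5 ± 1.17 CPM after CNO, with a log2 difference of 0.15 (SE 0.11). Its groups overlapped in CPM of library totals and did not overlap with TMM scaling, where 7.29% of all genes lay higher after CNO without overlap. Sstr2 was at 2.43 ± 0.392 and 2.02 ± 0.243 CPM, and its log2 difference of −0.22 (SE 0.32) was smaller than its SE. Sstr3 was at 11.5 ± 1.32 and 10.1 ± 0.618 CPM (log2 −0.15, SE 0.15). Sstr4 was at 1.30 ± 0.235 and 1.35 ± 0.434 CPM (log2 0.09, SE 0.41), and this difference changed sign, to −0.09, when CNO 2 was left out. By library totals, 4.54% of all genes lay higher and 11.3% lower after CNO without overlap, and the edgeR test called 0.137% of 13117 genes in this layer.

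**Figure D3:**
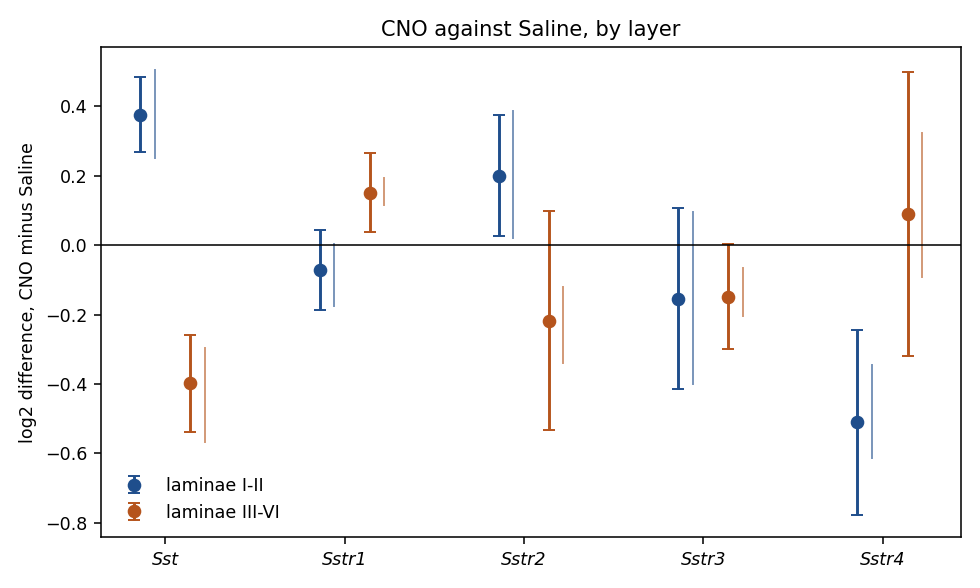
The log2 difference between CNO and Saline (vertical axis) is drawn for 5 members, blue for laminae I–II and orange for laminae III–VI. Points with bars are the edgeR estimate ± SE, and the thin line beside each spans the estimates with one library left out in turn. Sst lies at 0.38 superficially and at −0.40 in the deep layer, and neither thin line of Sst reaches 0.

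Because the same rats gave both layers, the ratio of the superficial to the deep level was formed within each rat, taking the number in the labels as the rat. For Sst this ratio of CPM values was 6.87, 7.75 and 8.42 in the Saline rats and 13.1, 13.5 and 13.5 in the CNO rats. The treatments did not overlap, and the means were 7.68 ± 0.776 and 13.4 ± 0.219 (SD, n = 3 rats). The CNO effect in laminae I–II minus that in laminae III–VI was 0.78 in log2 (SE 0.10), and 210 of 13745 genes had a larger value. It lay between 0.68 and 0.83 over the 18 alternative settings tried, which include leaving out each library in turn.

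The Sstr2 ratio was 7.59, 6.32 and 7.30 in the Saline rats and 8.12, 11.3 and 9.50 in the CNO rats. These did not overlap either, although the nearest rats were close, and the fitted difference was 0.41 in log2 (SE 0.31). The ratios of Sstr1 were 1.57 to 1.99 after Saline and 1.39 to 1.88 after CNO, those of Sstr3 0.334 to 0.877 and 0.547 to 0.748, and those of Sstr4 3.13 to 4.67 and 2.16 to 4.37. All 3 overlapped. For the ratio within each rat, 10.7% of 13648 genes lay higher in all CNO rats than in all Saline rats and 4.49% lay lower. The edgeR interaction test called 0.429% of 13745 genes. All 6 astrocyte genes had a positive difference of the CNO effects, with a median log2 of 0.26 against 0.0051 for all genes. Of these 6, edgeR called 1 and DESeq2 called 1. At an unadjusted p under 0.05 there were 3 (50%), against 9.26% of all genes. The part of astrocytes in the Sst ratio was not tested.

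**Figure D4:**
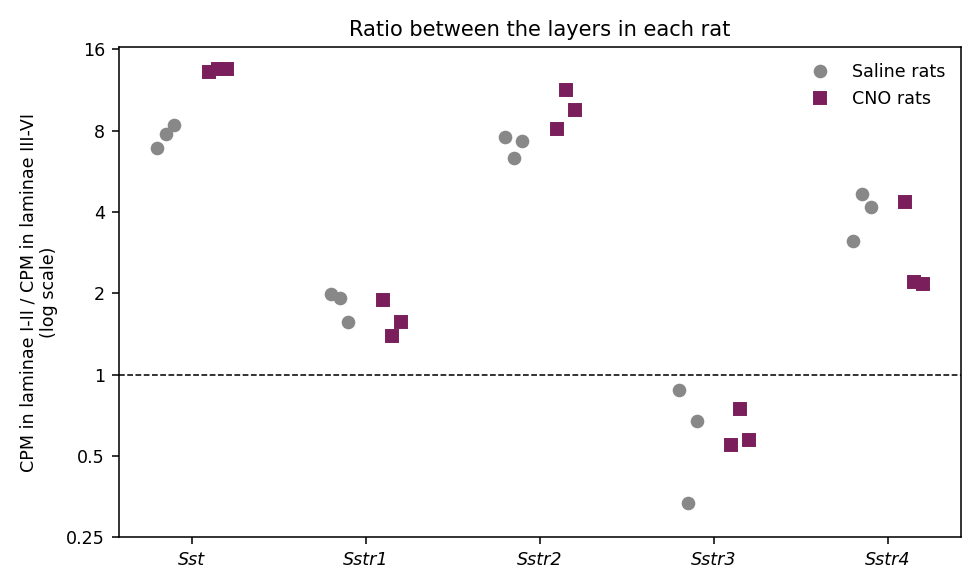
Each point is one rat, and the vertical axis (log scale) is the CPM in laminae I–II divided by the CPM in laminae III–VI, for 5 members. Grey circles are Saline rats, purple squares are CNO rats, and the dashed line marks equal levels. The CNO rats lie above the Saline rats for Sst (13.1 to 13.5 against 6.87 to 8.42) and for Sstr2 (8.12 to 11.3 against 6.32 to 7.59).

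Sst was also set against genes of other superficial excitatory neurons, as counts of Sst per count of the other gene in the same library, which needs no scaling. In laminae I–II there were 1.40, 1.54 and 1.42 Sst counts per Tac1 count after Saline and 1.99, 2.24 and 2.09 after CNO. Per count of Nts (neurotensin) there were 1.44 to 1.70 after Saline and 2.04 to 2.30 after CNO, and per count of Calb1 (calbindin) 2.04 to 2.54 and 3.54 to 3.95. Of 15 such genes, 4 gave a ratio that was higher in all CNO libraries than in all Saline libraries (these 3 and Slc17a6, the vesicular glutamate transporter VGLUT2), and 11 overlapped. Over all other genes 26.6% gave a ratio higher without overlap, so the share among the excitatory genes was near the background. In laminae III–VI there were 1.44, 1.45 and 1.45 Sst counts per Tac1 count after Saline and 1.00, 1.12 and 1.37 after CNO. Tac1 was the only 1 of 13 genes (those with a count in every deep library) with the CNO ratio lower in all libraries, against 11.3% of all other genes.

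The genes whose pattern was most like that of Sst were ranked by the correlation of log2(CPM + 1) with Sst, among 14487 genes with at least 1 CPM in 3 libraries. Over the 12 libraries the 5 highest were Stx1a (syntaxin 1A), Cacnb3 (a calcium channel subunit), Hipk1, Rasal1 and Astn1, at r = 0.997 to 0.998. Over all genes the median was r = 0.494 and the 99th percentile 0.989. Sstr2 stood at place 52 (r = 0.993), Sstr1 at 1565, Sstr4 at 1805 and Sstr3 at 12815 (r = −0.773). With the means of the 4 groups removed, the highest were Tctex1d2, Barx2, Stx1a, Mertk and Sh3tc2, at r = 0.938 to 0.959. Stx1a was among the first 5 both ways. By this measure Sstr2 had r = 0.754 and Sstr4 r = 0.710 with Sst, against a 99th percentile of 0.822, and Sstr1 had r = 0.259 and Sstr3 r = 0.0716. All points share their libraries and depth, and the values are a description.

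Genes around somatostatin are no members and were tested: those through which it acts, those that process or degrade it, and CREB and activity-induced genes. Of 65 genes in 9 lists, 64 were in the tables and 62 passed the filter. Between the layers 40 were higher in laminae I–II, 9 were lower and 13 did not pass the edgeR test, against 30.8% of all genes in each direction. With library totals only, 47 were higher and 2 lower, and Gnb1, Adcy3 and Ide changed sign. The median log2 difference of the 62 was 0.29, against 0.02 for all genes. The gene for cortistatin, the other ligand of these receptors, was not analysed here.

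All 4 GIRK channel genes were higher in laminae I–II, among them Kcnj6 (log2 0.83, SE 0.05, adjusted p = 2.32e-12), Kcnj3 (log2 0.66) and Kcnj9 (log2 0.50). All 3 genes of presynaptic calcium channels were also called higher. Cacna1e (R-type) had a log2 difference of 1.61 (SE 0.05, adjusted p = 2.97e-17) and Cacna1b (N-type) one of 0.98. Cacna1a (P/Q-type), at 0.10, lost its call under 14 of 18 alternatives, with adjusted p up to 0.165 when III–VI Saline 1 was left out. Of 13 G protein subunits (alpha subunits of Gi/o, and beta and gamma subunits) 8 were higher and 2 lower. The higher ones were led by Gnai2 (log2 0.79), Gng2 (0.58) and Gng4 (0.68). The lower ones were Gnb1, whose direction depended on the scaling, and Gnb5. The 8 adenylyl cyclases were divided: 4 were higher, among them Adcy1 (log2 0.82), and 3 were lower, led by Adcy9 (−0.64) and Adcy2 (−0.69). Of 7 kinases and arrestins that switch such receptors off, 6 were higher, led by Grk3 (log2 0.50), Grk2 (0.21) and Arrb2 (0.32), and Grk5 was lower at −0.24. With library totals only, neither Gnb5 nor Grk5 was called lower. The called share was 76.9% of the G protein subunits and 87.5% of the cyclases. It was 100% of the GIRK channel, calcium channel, and kinase and arrestin genes. Among all 13745 tested genes it was 61.6%, with 30.8% in each direction.

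Of 9 tested genes that process peptide precursors, 4 were higher in laminae I–II and 1 was lower, a called share of 55.6%, near the 61.6% of all genes. Pcsk5 and Pcsk1, proprotein convertases, had log2 differences of 1.18 and 0.76, Cpe (carboxypeptidase E) had 0.23, and Scg5, a helper of convertase 2, was lower at −0.23. Among 4 peptidases the called share was 50%, and Mme (neprilysin) was higher at 1.43 (SE 0.07, edgeR adjusted p = 4.28e-14). Ide (insulin-degrading enzyme) was at −0.14 with TMM scaling and 0.04 with library totals. Of 14 tested genes of CREB, its coactivators and activity-induced genes, 10 were higher and 1 lower, a called share of 78.6% against 61.6%. The higher ones were led by Egr1 (log2 0.95), Crtc1 (0.56) and Crebbp (0.24), and Fos was lower at −0.31. With library totals only, neither Scg5 nor Fos was called lower. Creb1 itself was at −0.10 (SE 0.12, adjusted p = 0.478).

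Between CNO and Saline, edgeR and DESeq2 called 0 of 62 of these genes superficially and 0 of 61 in the deep layer. At an unadjusted p under 0.05 there were 10 (16.1%) and 1 (1.64%), against 941 of all 13344 genes (7.05%) and 1212 of all 13117 (9.24%). The CNO effect differed between the layers in 1 of 62, Cacna1e, with 5 (8.06%) at an unadjusted p under 0.05, against 1273 of all 13745 genes (9.26%). Cacna1e was at 568 ± 40.1 CPM after Saline and 675 ± 36.8 CPM after CNO in laminae I–II, and at 189 ± 14.3 and 171 ± 19.7 CPM in laminae III–VI (SD, n = 3). The difference of its CNO effects was 0.36 in log2 (SE 0.07, adjusted p = 0.0157), and 5 of 18 alternatives took the adjusted p past 0.05, up to 0.618 without the rat in the model. Of the excitatory neuron genes none of 15 was called by edgeR or DESeq2 in laminae I–II, with 5 (33.3%) at an unadjusted p under 0.05, against 7.05% of all genes. In laminae III–VI edgeR called 1 of 12, Nts, which fell after CNO (log2 −0.80, SE 0.16, adjusted p = 0.0463), and 8 of 14 alternatives took its adjusted p past 0.05, up to 0.612 with limma on quantile-normalized counts. Of the inhibitory neuron genes, edgeR and DESeq2 called 0 of 12 in laminae I–II, in laminae III–VI and in the interaction. At an unadjusted p under 0.05 there were 3 (25%) in each, against 7.05%, 9.24% and 9.26% of all genes.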

How the data were processed

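Per the labels and the study's methods, RNA of microdissected dorsal horn was made into rRNA-depleted directional libraries. The authors mapped reads with CLC Genomics Workbench to the rat genome rn6 and deposited total counts per gene. A second deposited unit, the quantile-normalized count (a signal scaled over the 6 libraries of each layer), served only in an alternative. Their 12 columns of transformed values and their test columns (p-values, fold changes) were not used. Whether counting used strand is not given in the sources used here.

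The counts were read with Python 3.11.15 and fitted in R 4.3.3 with edgeR 4.0.16 (filterByExpr, minimum count 10 and total 15; TMM; quasi-likelihood; Benjamini-Hochberg over all tested genes, threshold 0.05). The layer and interaction fits held all 12 libraries and a term for each rat. The CNO fits held the 6 libraries of a layer. Both layers came from the same rats by the study's methods. Same-numbered libraries of both layers deviated together across genes (r = 0.133 to 0.199 in Saline, 0.145 to 0.172 in CNO), and others did not (−0.129 to −0.0323). Deviations were taken from group means, so positive values for same numbers make the others negative. Same-numbered Saline and CNO libraries, from different rats, had r = 0.0747 to 0.139 in laminae III–VI and 0.0235 to 0.0442 in laminae I–II. That the number marks the rat is therefore assumed here and was not settled by these values. In the CNO tests within a layer, p-values measure the spread between 3 libraries a group. In the layer and interaction tests they measure how the layer difference within a rat varied between rats, with 3 rats a treatment. Every pair of replicates differed by more than counting noise.

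The members and lists were chosen with earlier results of these data known. Members are named in full, with the 5 genes most like Sst and up to 3 called genes with the smallest p per list. Creb1, Gnb5, Adcy3, Grk5, Scg5, Fos, Slc6a5, Slc32a1 and Prph were named in part after their values were seen. One marker gene is not reported here. Promoter windows came from RefSeq tables of build GRCr8. Alternatives were RLE factors, library totals, DESeq2 1.42.0, limma 3.58.1 on quantile-normalized counts, other low-count filters, the replicate block, the CNO effect from all 12 libraries at once, and each library omitted in turn. The fits were tested on simulated data.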

Additional observations from a re-analysis of the deposited data

Results flagged for a closer look

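The CNO effect on Cacna1e, the gene of the R-type calcium channel, differed between the layers by the interaction test, by 0.36 in log2 (edgeR adjusted p = 0.0157). The level was higher with CNO in laminae I–II and lower in laminae III–VI, by 0.24 and −0.11 in log2, and neither layer alone passed the test. The interaction lost its call under 5 of 18 alternatives, with an edgeR adjusted p up to 0.618 without the rat in the model. That the number in the labels marks the rat is assumed.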

How the results depend on the processing

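The log2 differences of Sst kept their direction and stayed within 1 SD of the libraries under all settings tried: 3.05 to 3.32 between the layers, 0.25 to 0.51 and −0.57 to −0.30 for CNO in laminae I–II and III–VI, and 0.68 to 0.83 for the difference of the CNO effects. With one library left out at a time these were 3.05 to 3.26, 0.25 to 0.51, −0.57 to −0.30 and 0.68 to 0.83. The difference of the CNO effects on Sstr3 changed sign in 10 of 18 settings, between −0.34 and 0.30. Counts of called genes were less stable. In laminae I–II, 19 genes were called by CNO, and DESeq2 gave 9, no low-count filter 131, the replicate block 78 and limma on quantile-normalized counts 0. One library left out gave 3 (CNO 2) to 29 (Saline 1). In laminae III–VI the 18 called genes became 112 without a filter and 194 under the replicate block, and 0 in a fit of all 12 libraries and with limma. One library left out gave 0 (CNO 3) to 93 (Saline 3), and 2, 5, 9 and 5 without Saline 1, Saline 2, CNO 1 and CNO 2. The interaction count of 59 became 28 with DESeq2, 164 with no filter and 2 with no replicate block. One library left out gave 14 (I–II CNO 3) to 74, and 20, 20 and 19 without I–II CNO 2, III–VI CNO 2 and III–VI CNO 3. Of the pathway genes, no filter called 2 and the replicate block 1 in laminae I–II. In the interaction no filter called 2, no replicate block 0, and one library left out 0 to 2 (0 without I–II Saline 2, I–II CNO 3, III–VI Saline 2 or III–VI CNO 3). Of 31 named pathway and neuron results over 554 settings, 523 kept their call, 30 lost it and 1 turned (Ide between the layers, 0.037 with library totals). These 31 leave out Gnb1, Gnb5, Adcy3, Grk5, Scg5, Fos, Slc32a1 and Prph. With library totals, the lists that held Gnb5, Grk5, Scg5 and Fos had 0 genes called lower between the layers. The causes were not tested. Saline and CNO libraries of one layer shared only a number (r = 0.0235 to 0.139), so their replicate block is given here alone. The low counts limit Sstr4, at 6 to 34 counts a library, and Sstr5.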
